A study of Mus musculus with 4 samples.

Results

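The 9 genes of the mouse HoxD cluster (Hoxd1, Hoxd3, Hoxd4, Hoxd8, Hoxd9, Hoxd10, Hoxd11, Hoxd12 and Hoxd13) were followed across 4 organ primordia of the embryonic gut region. They were chosen by name, as every HoxD gene with a probe on the array, and make up 9 of the 16995 genes that could be given a symbol and 12 of 41105 probes, since Hoxd3, Hoxd9 and Hoxd13 each have a second probe. Total RNA came from lung, esophagus, stomach and intestine primordia of ICR mouse embryos, an outbred strain, at E11.5, with no treatment or mutation named for any group. Each organ was read on 1 Agilent array in 1 colour, so there are no replicates, no test was possible, and every difference below is one between 2 arrays. The labels do not say how many embryos went into a sample or which stretch of intestine was taken, the stomach label is spelled "gustric", and the extraction text of every sample speaks of stomach only. In such whole-organ RNA, fewer cells of a type and less RNA per cell cannot be told apart.

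Hox genes encode homeodomain transcription factors that give cells along the head to tail axis their position. They lie in clusters, and genes at the 3′ end of a cluster (low numbers) are as a rule active earlier and further forward than genes at the 5′ end (high numbers), a rule called collinearity. In the gut, HoxD genes are known mainly from the mesoderm that forms smooth muscle, with the 5′ members marking the hindgut, where Hoxd13 takes part in forming the anorectal region.

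The RefSeq order of the genes, from the 5′ end, is Hoxd13, Hoxd12, Hoxd11, Hoxd10, Hoxd9, Hoxd8, Hoxd3, Hoxd4 and Hoxd1, with Evx2 beyond Hoxd13 and Mtx2 beyond Hoxd1. Here Hoxd3 precedes Hoxd4 because its annotated transcripts begin upstream of Hoxd4 and run over it. The gene models of Hoxd11 and Hoxd10 overlap too, and where in these models the probes lie was not examined here, so signal of one gene of such a pair on the other's probe cannot be told apart from its own. The 250 bases before the RefSeq start (GRCm38.p6, plus strand) are shown for 1 gene of each stretch of the cluster: Hoxd4, which was well above background in all 3 gut organs, and Hoxd8 and Hoxd10, which were above background in the intestine alone. Capitals mark matches, on either strand, to TTTATG (reverse CATAAA), the core bound by caudal-type factors, or to AGGTCA (reverse TGACCT), the core of retinoic acid receptor elements.
Hoxd4, chr2:74721728-74721977: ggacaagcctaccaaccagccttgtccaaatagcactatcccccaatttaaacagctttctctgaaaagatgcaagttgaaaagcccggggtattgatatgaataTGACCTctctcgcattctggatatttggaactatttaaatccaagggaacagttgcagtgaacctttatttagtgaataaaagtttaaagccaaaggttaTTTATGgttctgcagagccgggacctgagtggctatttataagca
Hoxd8, chr2:74704365-74704614: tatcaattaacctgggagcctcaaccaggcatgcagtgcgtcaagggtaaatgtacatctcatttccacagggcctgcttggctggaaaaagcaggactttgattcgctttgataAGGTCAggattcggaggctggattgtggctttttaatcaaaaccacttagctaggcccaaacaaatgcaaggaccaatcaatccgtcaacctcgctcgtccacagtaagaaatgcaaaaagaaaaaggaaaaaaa
Hoxd10, chr2:74691641-74691890: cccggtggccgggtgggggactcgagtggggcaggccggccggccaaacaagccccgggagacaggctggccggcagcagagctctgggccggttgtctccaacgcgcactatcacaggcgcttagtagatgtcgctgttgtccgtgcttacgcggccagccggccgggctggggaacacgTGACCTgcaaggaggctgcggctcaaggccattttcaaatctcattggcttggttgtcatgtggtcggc
The Hoxd4 window holds both motifs, and the windows of Hoxd8 and Hoxd10 hold AGGTCA alone. TTTATG occurred in 3 of the 10 HoxD windows (Hoxd3, Hoxd4 and 1 of the 2 starts of Hoxd11) and in 10.8% of all 32851 RefSeq promoters of that length. AGGTCA occurred in 4 of 10 (Hoxd3, Hoxd4, Hoxd8 and Hoxd10) and in 14.0% of all. TGATTNAT (reverse ATNAATCA), a joint PBX and HOX motif whose matches can share letters with TTTATG, occurred in 1 of 10 (the other start of Hoxd11) and in 2.82% of all. A match of this kind is a description of letters and not of binding. The 3 windows differ in base composition: GC made up 40.4% of the Hoxd4 window with 3 CpG sites, 44.4% of the Hoxd8 window with 6, and 65.6% of the Hoxd10 window with 20.

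A level below is the log2 of a probe's processed signal minus the log2 of that array's 75th percentile of signal, so 0 is that percentile itself; levels are compared between arrays for 1 probe and not between probes. The 4 arrays sat on 1 slide and were scanned together, but their brightness differed. The 75th percentile was 991 signal units in intestine, 320.2 in stomach, 379 in esophagus and 32.0 in lung, and the scanner called 74.0%, 67.9%, 69.3% and 39.0% of spots well above background. The lowest level called well above background was −6.92 in intestine, −5.78 in stomach, −5.75 in esophagus and −2.39 in lung, so the intestine array could show genes that the lung array could not. The part of these differences in the results on detection was not tested, but where an array did not show a probe well above background, the fold is a lower bound, computed against that array's own lowest level and written "at least". Copies of a probe on 1 array varied by a median SD of 0.07 to 0.11 on the log2 scale (128 to 206 probes with copies), while each HoxD probe has a single spot. Nkx2-1, Barx1 and Cdx2 were each highest in the organ they mark. Nkx2-1, the lung and thyroid regulator, was at 2.47 in lung, and Barx1, a stomach mesenchyme factor, at 4.49 in stomach. Cdx2, the intestinal caudal factor, was at 1.90 in intestine against −4.31 in stomach. The foregut factor Sox2 was at 1.09 in esophagus, 0.63 in stomach, −1.77 in lung and −2.56 in intestine. No gene checked the esophagus label alone, and that array also held Nkx2-1 (−1.10) and Barx1 (0.92) well above background.

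All 9 HoxD genes were well above background on the intestine array, 4 on the esophagus array (Hoxd3, Hoxd4, Hoxd9 and Hoxd13), 3 on the stomach array (Hoxd3, Hoxd4 and Hoxd9) and 0 on the lung array. For scale, 84.1%, 78.3%, 78.7% and 56.2% of all genes with a symbol were well above background in intestine, esophagus, stomach and lung. The pattern intestine alone held 5 members (Hoxd1, Hoxd8, Hoxd10, Hoxd11 and Hoxd12) and 4.50% of all genes, 764 of 16995. The brighter intestine array bears on this pattern: the intestine level of 8 members lay above the lowest level of the esophagus and stomach arrays, that of Hoxd12 did not, and only 5 (Hoxd4, Hoxd8, Hoxd9, Hoxd10 and Hoxd11) lay above that of the lung array. With the scanner's weaker flag, positive and significant signal, the counts became 9 in intestine, 8 in esophagus, 7 in stomach and 2 in lung. The plot of probe levels shows all 12 probes with the lowest level of each array.

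**Figure D1:**
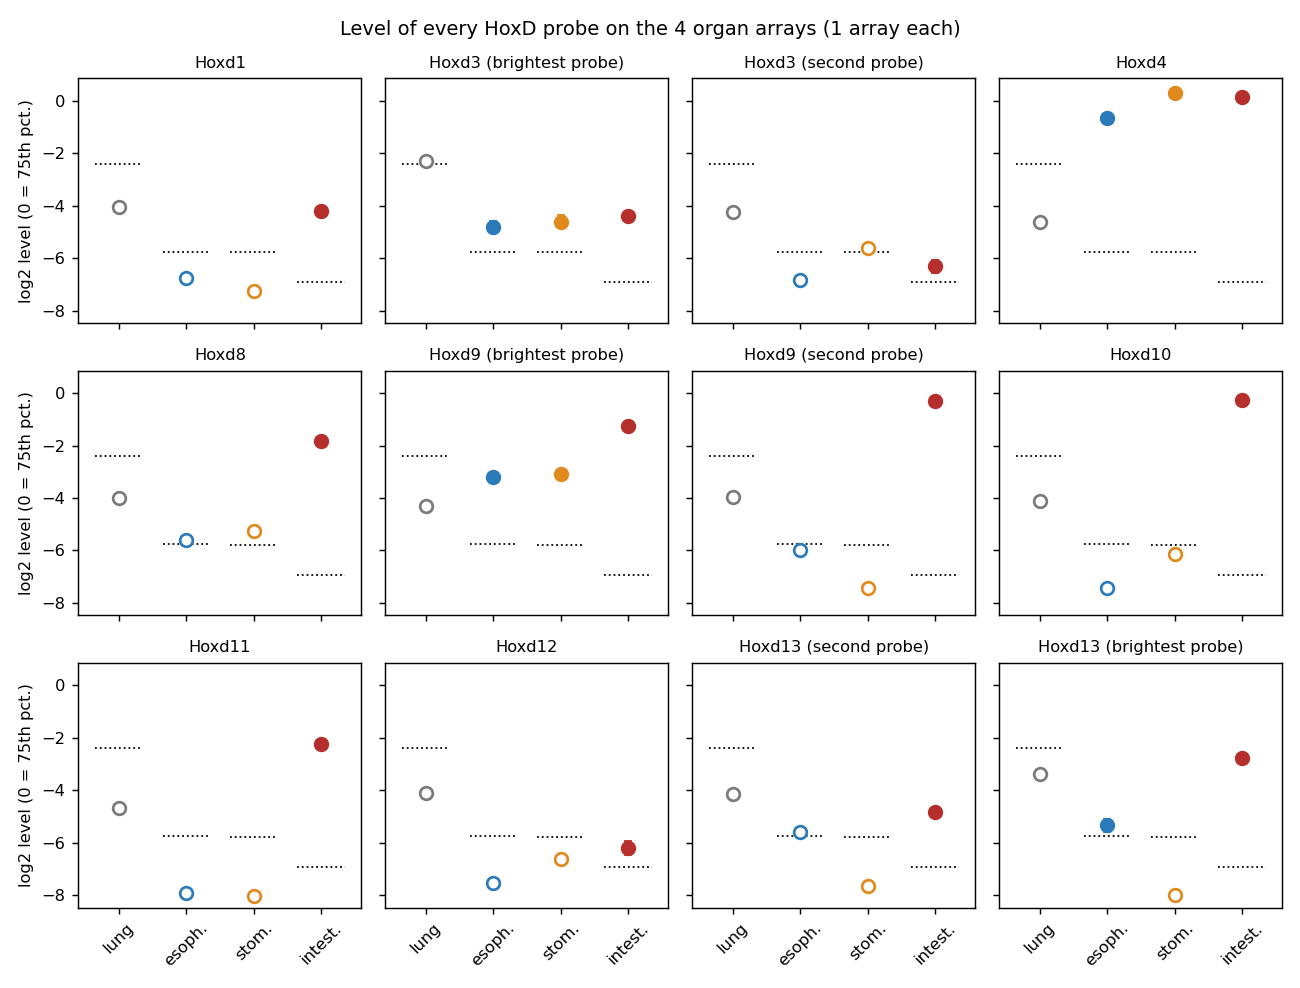
Level of every HoxD probe (log2 signal minus the array's 75th percentile) on the lung, esophagus, stomach and intestine arrays, 1 array per organ; filled points are well above background, open points are not, and dotted lines mark each array's lowest level well above background. All 12 probes are filled in intestine, 4 in esophagus, 3 in stomach and 0 in lung.

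At the 3′ end, Hoxd3 and Hoxd4 were well above background in all 3 gut organs and with the scaling used here each differed by under 2-fold between those organs (median centring took Hoxd4 past 2-fold against esophagus), while Hoxd1 was detected in the intestine alone. Hoxd1, the most 3′ member, encodes an anterior-type factor with a role in sensory neurons. Its level was −4.18 in intestine, and −6.74 in esophagus, −7.26 in stomach and −4.05 in lung, where it was not well above background. The intestine level was at least 3.02-fold that of stomach and at least 2.97-fold that of esophagus, and none could be set against lung, whose lowest level was higher than the intestine level.

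Hoxd3 encodes a factor with a part in forming the neck vertebrae. Its brighter probe, meaning for every gene the one with the higher mean log2 signal over the 4 arrays, was at −4.38 in intestine, −4.60 in stomach and −4.80 in esophagus. In lung it was at −2.29, not well above background. Intestine minus stomach was 0.22 ± 0.29 and intestine minus esophagus 0.43 ± 0.28 on the log2 scale, where ± is the scanner's own error of both spots combined and covers neither hybridisation nor biology. The first difference is smaller than that error, and both are under 2-fold and turn negative (−0.97 and −0.80) under normexp background correction. The dimmer probe was well above background in intestine alone, at −6.30, below the stomach array's lowest level, and so gave no fold.

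Hoxd4, whose retinoic acid response in the hindbrain is well studied, had these levels: 0.14 in intestine, 0.29 in stomach and −0.66 in esophagus, with −4.62, not well above background, in lung. In signal units these were 1092, 392, 240.3 and 1.30. The 3 gut organs stand together and the lung stands apart. Stomach exceeded esophagus by 0.95 ± 0.19 (1.93-fold) and intestine exceeded esophagus by 0.80 ± 0.19 (1.74-fold), which became 1.30, past 2-fold, with median centring. Intestine minus stomach was −0.15 ± 0.19, under the scanner error, and 0.15 when the arrays were centred on their medians. Against lung the level was at least 3.33-fold in esophagus, 6.44-fold in stomach and 5.79-fold in intestine.

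In the middle of the cluster both genes were highest in the intestine. Hoxd8, which encodes a trunk-level factor, was at −1.82 in intestine and not well above background elsewhere (−4.00 in lung, −5.60 in esophagus and −5.25 in stomach). Intestine was at least 10.8-fold stomach, at least 13.7-fold esophagus and at least 1.49-fold lung. The esophagus and stomach levels lay just above those arrays' lowest levels and still lacked the flag, so the bound rests on the measured value there.

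Hoxd9, which acts with its paralogues in the lower spine and hindlimb, gave different sizes on its 2 probes. The brighter probe by that mean was at −1.27 in intestine, −3.08 in stomach and −3.19 in esophagus, all well above background, and at −4.32 in lung, which was not. It is the only member measured on both sides with a 2-fold difference from stomach: intestine minus stomach was 1.81 ± 0.20 (3.50-fold) and intestine minus esophagus 1.92 ± 0.20 (3.79-fold), each larger than the scanner error. Esophagus and stomach differed by 0.11 ± 0.21, less than that error. The other probe, which had the higher signal of the 2 on the intestine array, was at −0.29 there and not well above background in esophagus (−5.99), stomach (−7.41) or lung (−3.96), and there intestine was at least 44.9-fold stomach and at least 44.3-fold esophagus. Both probes put the intestine highest, and the size of the difference is not settled between them.

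At the 5′ end, Hoxd10, Hoxd11, Hoxd12 and Hoxd13 were all detected in the intestine and, but for Hoxd13 in esophagus, nowhere else. Hoxd10, a factor of the lumbar level and hindlimb, was at −0.27 in intestine, −7.41 in esophagus, −6.15 in stomach and −4.10 in lung; in signal units, 819.6 against 2.22, 4.52 and 1.86. The intestine stands alone here, and its level was at least 45.3-fold stomach, 44.6-fold esophagus and 4.34-fold lung. Of the brighter probes of the members, this one had the largest bound against stomach and against esophagus.

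Hoxd11, known for its part in the forearm and kidney, was at −2.25 in intestine, −7.93 in esophagus, −8.05 in stomach and −4.68 in lung. Only the intestine was well above background, at least 11.54-fold stomach, 11.4-fold esophagus and 1.11-fold lung. Hoxd12, a limb and genital bud gene, was at −6.19 in intestine, −7.52 in esophagus, −6.61 in stomach and −4.09 in lung. Its 13.5 signal units in intestine passed the flag, but the level lay under the lowest level of the other 3 arrays, so no fold could be given.

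Hoxd13, the last gene of the cluster and a digit and anorectal factor, was at −2.75 in intestine on its brighter probe, −5.33 in esophagus, −7.996 in stomach and −3.36 in lung, and was well above background in intestine and esophagus. Intestine minus esophagus was 2.58 ± 0.28 (5.96-fold) and intestine was at least 8.12-fold stomach. The esophagus level was at least 1.36-fold stomach and rested on 9.43 signal units. The other probe was well above background in intestine alone (−4.82), which was at least 1.93-fold stomach and at least 1.71-fold esophagus. Both probes put the intestine above stomach and esophagus, and they differ on whether the esophagus passes the flag. Neither could be set against lung, whose lowest level lay above both intestine levels.

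Counted over the cluster, 6 of the 9 members exceeded their stomach level at least 2-fold in intestine (Hoxd1, Hoxd8, Hoxd9, Hoxd10, Hoxd11 and Hoxd13), against 4.87% of the 13808 genes that could be compared. None was at least 2-fold higher in stomach, against 7.52%. Only the 3 members measured on both arrays could have been, since a bound with stomach below the flag has no value in that direction. This 0 therefore says nothing particular to the members. At 4-fold the count was 4 (Hoxd8, Hoxd10, Hoxd11 and Hoxd13), against 1.39%. Of the 8 comparable members, 3 were measured on both arrays (Hoxd3, Hoxd4 and Hoxd9), and of the 6 called, Hoxd9 alone was measured and the other 5 rest on bounds. The median difference of the 8 was 2.42 and that of all comparable genes −0.04; the 8 could be compared only where the intestine was bright enough, so this median describes them alone. The count rests on the low background of these arrays. It fell to 1 (Hoxd10) under normexp and to 2 when the lung array's lowest level was set on all arrays. Normexp added an offset of 50 to every signal before scaling to the 75th percentile, which is far higher in intestine than in stomach. This leaves dim probes lower in intestine: Hoxd3 went from 0.22 to −0.97.

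The same 6 members exceeded their esophagus level at least 2-fold in intestine, against 8.71% of 13895 genes. None was at least 2-fold lower, against 11.9%, but only Hoxd3, Hoxd4, Hoxd9 and Hoxd13, measured on both arrays, could have been. At 4-fold there were 4 (Hoxd8, Hoxd10, Hoxd11 and Hoxd13), against 1.78%. The median of the 8 comparable members was 2.25, beside 0.13 over all genes. This comparison shares the intestine array with the one above, so it is no second measurement of the intestine. The count was 7, with Hoxd4 added, under median centring, 2 under normexp and 2 with the lung array's lowest level. By stretch, 1 of 3 members at the 3′ end, 2 of 2 in the middle and 3 of 4 at the 5′ end had such an intestinal excess, against stomach and against esophagus alike.

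**Figure D2:**
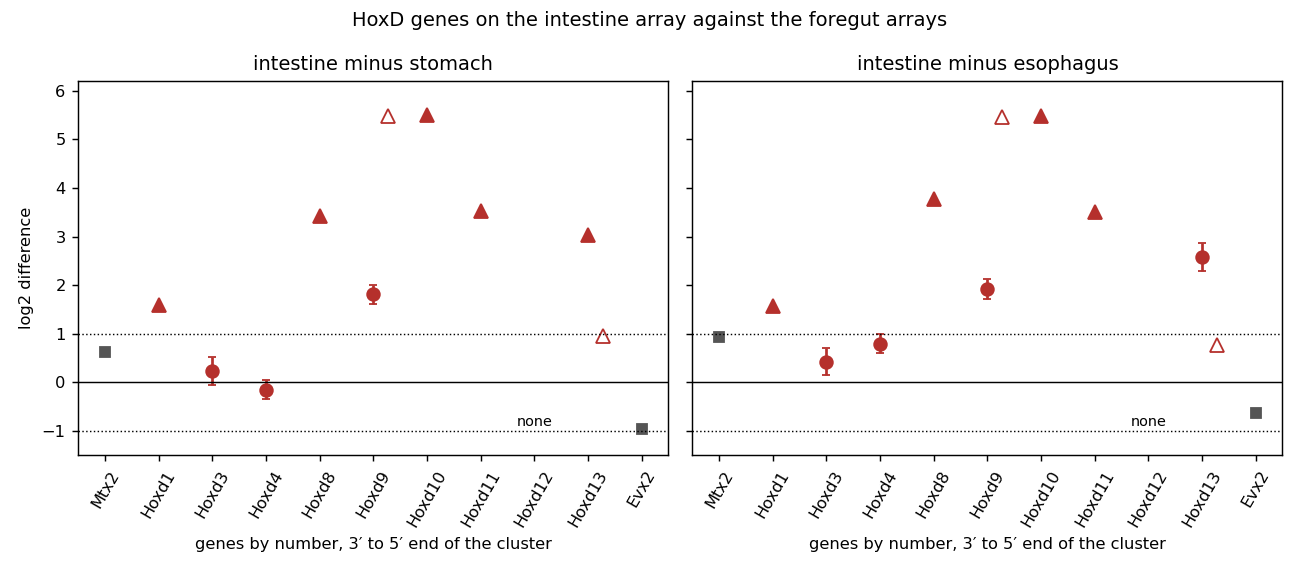
Log2 difference of the intestine array from the stomach array (left) and the esophagus array (right) for the HoxD genes by number, with the flanking genes Mtx2 and Evx2 as squares; circles are measured on both arrays with the scanner's error as bars, triangles are lower bounds, open symbols are second probes and dotted lines mark 2-fold. Hoxd3 and Hoxd4 lie between the dotted lines in both panels, Hoxd10 has bounds of 5.50 and 5.48, and Hoxd12 has no value.

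**Figure D3:**
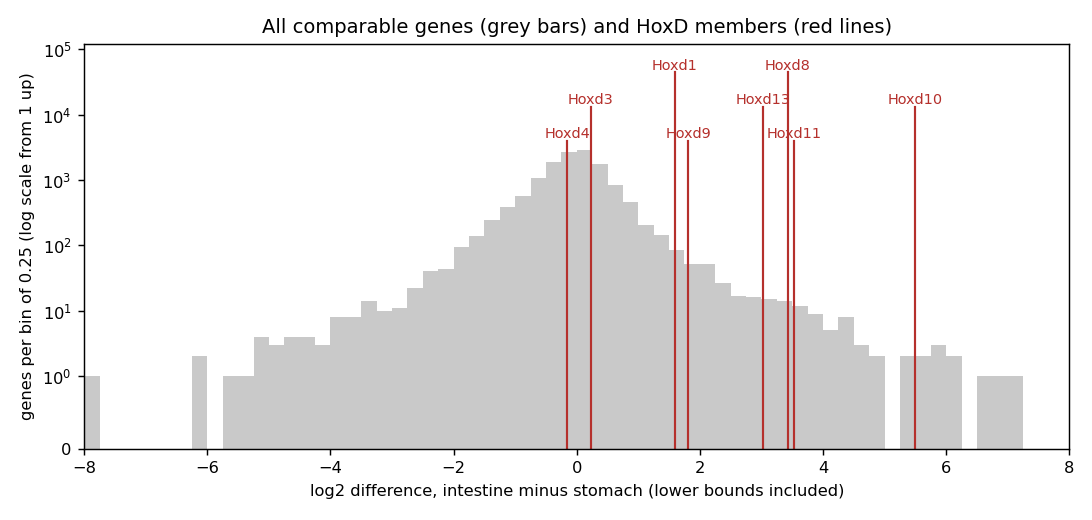
Histogram of log2 differences, intestine minus stomach, over the 13808 comparable genes (grey bars, bin width 0.25, log axis, values past ±8 placed in the end bins), with the 8 comparable HoxD genes as red lines. Hoxd3 and Hoxd4 lie in the centre of the distribution and the other 6 between 1.59 and 5.50 on the intestine side.

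Between the foregut organs few members could be compared. Of 9, 4 could be compared between stomach and esophagus (Hoxd3, Hoxd4, Hoxd9 and Hoxd13), and 0 were at least 2-fold higher in stomach, against 4.27% of 13733 genes, or in esophagus, against 5.63%. With shares this low, 0 of 4 says nothing particular to the members, and the other 5 were below background in both organs. The median difference of the 4 was 0.16, as was that of all genes. Hoxd4 came nearest, at 1.93-fold in stomach, and passed 2-fold when the arrays were centred on the median (1.15 on the log2 scale) or quantile normalized (1.07).

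Against lung, most members had no value. Hoxd4 alone could be compared with esophagus and stomach, and was at least 2-fold higher in both, against 9.42% of 10513 genes for esophagus over lung and 9.87% of 10503 for stomach over lung. In intestine over lung 5 could be compared and 3 were at least 2-fold higher (Hoxd4, Hoxd9 and Hoxd10), against 8.4% of 10416. The dim lung array sets these counts in part: Hoxd1, Hoxd3, Hoxd12 and Hoxd13 had intestine levels below its lowest level, so a low lung level of these genes was not detectable at this brightness.

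The counterparts in the other Hox clusters (paralogues of the same groups) were counted in the same way, and they too differed by stretch of the cluster, with HoxB genes among the exceptions. Of 20 such genes 19 had a probe and 17 could be compared between intestine and stomach. Intestine was at least 2-fold higher for 6: Hoxc8 (at least 20.4-fold), Hoxc9 (at least 129-fold), Hoxa10 (at least 45.9-fold), Hoxc10 (at least 15.8-fold), Hoxa11 (at least 116-fold) and Hoxa13 (at least 2.84-fold). Stomach was at least 2-fold higher for 3, with log2 differences of −3.27 for Hoxb1, −2.38 for Hoxb8 and −2.65 for Hoxb9. These 3 kept a 2-fold stomach excess under each of the 4 other scalings and background corrections tried, while of the 6 higher in intestine 4 did: under normexp Hoxc10 stood at 0.96, and Hoxa13 had no value under quantile normalization or normexp. The 3′ groups of HoxA, HoxB and HoxC held 0 of 7 genes at least 2-fold higher in intestine and 1 lower, the middle groups 2 higher and 2 lower of 5, and the 5′ groups 4 higher of 7 on the array, of which 5 were comparable.

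Within groups, HoxD genes did not always go with their paralogues. In group 1, the intestine level of Hoxd1 was at least 3.02 times its stomach level, while Hoxb1 stood at −3.27. In group 3, Hoxd3 stood at 0.22, Hoxa3 at −0.46 and Hoxb3 at −0.45. In group 4, all 4 genes were under 2-fold: Hoxd4 at −0.15, Hoxa4 at −0.56, Hoxb4 at 0.41 and Hoxc4 at −0.03, while in lung Hoxa4, Hoxb4 and Hoxc4 were well above background (2.79, −0.49 and 0.51) and Hoxd4 was not. The lung array thus held detectable group 4 transcripts of the other 3 clusters.

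In groups 8 and 9 the clusters split. Hoxd8 and Hoxc8 were higher in intestine than in stomach and Hoxb8 was lower, and Hoxd9 and Hoxc9 were higher, Hoxa9 stood at 0.88 and Hoxb9 was lower. In groups 10 and 11 every gene with a probe (Hoxd10, Hoxa10, Hoxc10, Hoxd11 and Hoxa11) was well above background in intestine alone. In group 12, Hoxd12 was well above background in intestine at a level under the limits of the other arrays, and Hoxc12 was not well above background on any array. In group 13, Hoxd13, Hoxa13 and Hoxb13 were well above background in intestine, with Hoxb13 at least 1.92-fold stomach, and Hoxc13 on no array.

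**Figure D4:**
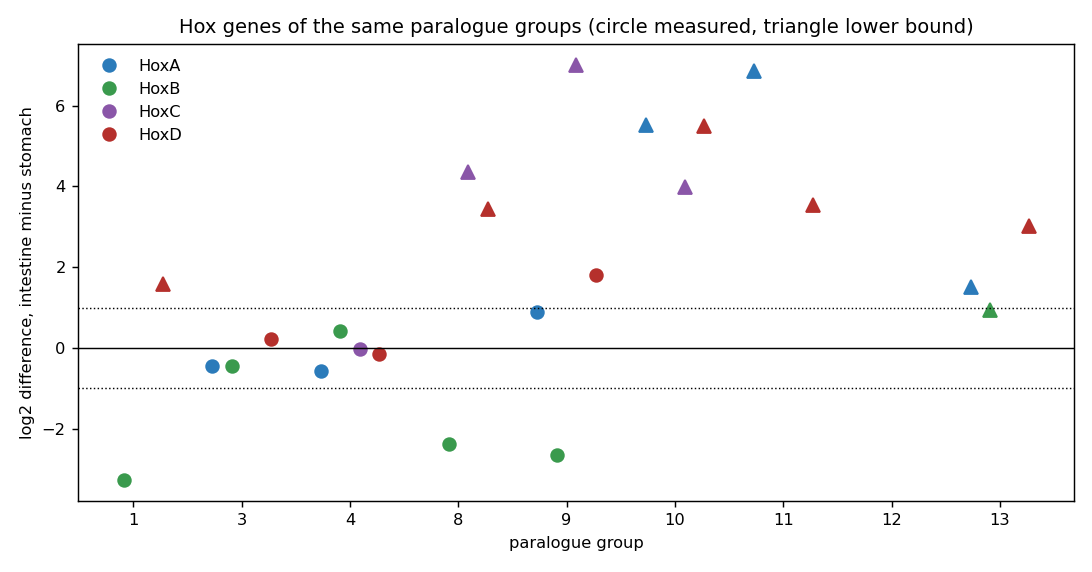
Log2 difference, intestine minus stomach, for Hox genes of groups 1, 3, 4 and 8 to 13, by cluster, where group 12 has no value; dotted lines mark 2-fold, circles are measured on both arrays and triangles are lower bounds. Groups 3 and 4 lie between −0.56 and 0.41 in all clusters, and the values below −2 are Hoxb1, Hoxb8 and Hoxb9.

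The genes around the cluster were counted in the same way. Of 11 neighbours listed 9 had a probe, and 0 were at least 2-fold apart in intestine against stomach, intestine against esophagus or stomach against esophagus. Over all genes 4.87% were at least 2-fold higher and 7.52% lower in intestine than in stomach. Against esophagus these shares were 8.71% and 11.9%. With shares of this size, 0 of 9 says little about the neighbours. Evx2, the homeobox gene next to Hoxd13, was at −3.38 in intestine, −2.43 in stomach and −2.75 in esophagus, and not well above background in lung (−4.19). It was 1.93-fold higher in stomach than in intestine, opposite to Hoxd13. Mtx2, a mitochondrial import gene on the other side, was 0.62 higher in intestine than in stomach. The median of the 9 was −0.19, beside −0.04 over all genes.

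Factors that bind DNA with Hox proteins, the TALE homeodomain proteins Pbx, Meis and Pknox, were well above background for all 9 genes in the 3 gut organs and for 8 in lung. None of the 9 was at least 2-fold apart between intestine and stomach or between stomach and esophagus, while 3 were at least 2-fold above esophagus in intestine (Meis1 by 2.14-fold, Meis3 by 2.54-fold and Pknox2 by 2.74-fold). Of these 3, Pknox2 kept the 2-fold excess under each of the 4 other scalings and background corrections. Meis1 stood at −1.83 under quantile normalization and −1.53 under normexp, while the median gene moved by 0.04 and 0.05. It has 2 probes, and the brighter one was chosen anew under each setting. These 2 values may thus come from its other probe, which was not checked. Known regulators of Hox genes moved both ways. Of 10 caudal and retinoic acid genes 9 could be compared between intestine and stomach, and 3 were at least 2-fold higher in intestine. They were Cdx2 (73.8-fold), Aldh1a2, which makes retinoic acid (2.50-fold), and Cyp26b1, which degrades it (2.90-fold). Another 4 were higher in stomach, among them the receptor Rarb (2.68-fold) and Cdx1, which was well above background in stomach and not in intestine (at least 2.66-fold). Of these 4, Rarb alone kept the 2-fold excess under each of the 4 other scalings and background corrections. The Cdx1 stomach level of −5.51 lay near that array's lowest level of −5.78, and the difference was −0.89 under quantile normalization. Among 15 Polycomb and trithorax genes, which keep Hox genes silent or active, Jarid2 alone was at least 2-fold apart between intestine and stomach, 2.18-fold higher in stomach, and fell under 2-fold with median centring (−0.83) and normexp (−0.97). Against esophagus, Jarid2 and Kdm6a (2.37-fold) were lower in intestine. The part of these genes in the HoxD differences was not tested.

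Tissues next to the gut that carry HoxD transcripts were checked by their own markers. Limb bud markers were not higher in intestine: 0 of 6 comparable were at least 2-fold higher than in stomach and 5 were lower, and their summed linear level was 0.316 in intestine, 2.12 in stomach, 17.3 in esophagus and 2.93 in lung. For mesonephros, the embryonic kidney, 0 of 5 were 2-fold apart between intestine and stomach. Of its 7 markers 5 (Pax2, Lhx1, Wt1, Cdh16 and Gata3) were well above background in each gut organ, and Pax8 and Emx2 on no array. The sums were 1.65, 2.41, 2.08 and 4.10, in the order of organs given for limb bud. Neural tube markers were 0 higher and 2 lower of 4, with sums of 0.244, 0.437, 0.365 and 0.671, and enteric neural crest markers 0 higher and 1 lower of 4, with 4.999, 6.61, 11.7 and 3.75. Somite and muscle markers were 1 higher of 4 (Meox1), with 0.327, 0.229, 1.94 and 0.525. The sums include probes that were not well above background (in lung, all 7 neural tube markers and 6 of 7 limb bud markers), so they give no order where a list was mostly dim. In esophagus, the one other organ with Hoxd13, 6 of 7 limb bud and 5 of 6 muscle markers were well above background, beside 78.3% of all genes. Stomach had 6 and 4 and intestine 5 and 4, so these counts differ little, though Tbx4 and Pax3 passed in esophagus alone. Levels did differ. All 5 comparable muscle markers were at least 2-fold higher in esophagus than in stomach, against 5.63% of all genes. Of 7 limb bud markers 3 were (Prrx1, Lhx2 and Tbx4), and Lhx9 was higher in stomach. Under normexp Tbx4 and all these muscle markers but Myog fell under 2-fold. The part of these tissues in the intestine HoxD values and in the esophagus Hoxd13 signal was not tested.

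Liver markers, and pancreas markers in part, were higher in intestine than in stomach. All 5 liver markers exceeded their stomach level at least 2-fold in intestine, Alb by 41.2-fold and Afp by 17.3-fold, and their summed level was 60.8 in intestine, 3.28 in stomach, 9.84 in esophagus and 26.4 in lung. Of 4 pancreas markers 2 were higher, Cpa1 by 17.0-fold and Ptf1a by at least 4.25-fold, with sums of 2.52, 0.2504, 0.130 and 0.199. The other 2, Pdx1 and Neurog3, stood at −0.43 and −0.14 for intestine minus stomach. Ptf1a had no value under normexp. The lung array had the second highest liver sum. The part of liver or pancreas tissue in the HoxD values was not tested.

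The genes with the most similar pattern were listed for 1 member of each stretch. Likeness was the root mean square difference of centred log2 levels over the 4 arrays, with dim arrays at their lowest level, among 740 genes well above background in intestine alone. For these patterns intestine is the only array well above background and the others enter at their lowest level or, as for Hoxd8 in esophagus and stomach, at a measured value without the flag, so likeness rests mainly on the intestine level. Nearest to Hoxd10 was its paralogue Hoxa10 (0.0078), then Gc, Spp2, Hoxc8 and Hoxa11 (0.32 to 0.59). Nearest to Hoxd8 were Slc51a, Ptprn2, Apoh, Hoxc10 and Clrn3 (0.10 to 0.23). Nearest to Hoxd1 were Muc13, Sult1b1, Ly6a, Hsd17b2 and Camp (0.01 to 0.04). Without the lung array the 5 names stayed for Hoxd10 and Hoxd1, and 3 of 5 stayed for Hoxd8 (Slc51a, Ptprn2 and Apoh).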

How the data were processed

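Total RNA was labelled with Cy3 by a low-input kit, per the labels' protocols. Per the file headers, Agilent Feature Extraction 10.5.1.1 (protocol GE1_105_Dec08) made the deposited spot intensity, background-subtracted and detrended but not scaled between arrays; the design refers to build mm8. The deposited series table, in log2, matched log2 intensity minus the 75th percentile (r of 0.99996 to 0.99998, column medians from −3.56 to −2.97; only this match shows how it was scaled, centred and directed) and served as an alternative. Outlier spots were left out (69 of 41174 probes dropped), copies averaged, and 24338 probes named through RefSeq (GRCm38.p6, names and gene order only).

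The brightest probe stood for each gene, with pairs called at 2-fold. Members and lists were chosen with earlier results of these data known. Named were all members, the 5 nearest patterns per stretch and up to 4 genes per list at least 2-fold apart; further paralogues, neighbours and marker genes were named after their values were seen. A gene counted among the paralogues is not reported here by name or drawn. Scaling, background correction, dim-probe limits, probe choice and flags were varied (pandas 2.3.3, limma 3.58.1). Normexp ran on median signal, since no mean signal column was found. Counting was tested on simulated data.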

Additional observations from a re-analysis of the deposited data

How the results depend on the processing

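No paired analysis was possible because each organ has 1 array. Of 72 counts under alternatives, 55 stayed within 1.5 times the reported count and 17 did not. No called difference of a HoxD gene that kept a value changed sign. A lower bound that would turn the other way gets no value, so this says little about calls that rest on bounds. Hoxd1, for example, had no value against stomach under normexp. Under normexp the members at least 2-fold apart were 1 for intestine against stomach, 2 for intestine against esophagus and 0 for lung against each gut organ. Its offset of 50 outweighs dim signals and leaves them lowest, after scaling, on the bright intestine array. With the dimmest array's lowest level on all arrays they were 2 for intestine against stomach and 2 for intestine against esophagus. For stomach against esophagus they were 1 with median centring, 1 with quantile normalization and 2 with no lowest level. With no lowest level, lung differed from esophagus for 9, from stomach for 9 and from intestine for 7, values that hold background signal. At 4-fold, lung against esophagus had 0. With the positive and significant flag, 2 members were detected in lung, 8 in esophagus and 7 in stomach. Median centring moved the median of all genes by 0.30 for intestine minus stomach, 0.50 for intestine minus esophagus and 0.20 for stomach minus esophagus. The Hoxd9 difference from stomach was 1.81 as reported, 4.47 over the mean of both probes and 0.81 under normexp. Restricting to genes well above background on all 4 arrays left no HoxD gene.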
